A study of Mus musculus with 6 samples.

Results

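The genes described here are 8 long noncoding RNAs (lncRNAs, transcripts that are not translated) that stay in the nucleus or carry small nucleolar RNAs (snoRNAs) in their introns: Malat1, Neat1, Gas5, Snhg1, Snhg8, Snhg12, Snhg15 and Kcnq1ot1. They were chosen by symbol, they make up 8 of the 53090 gene rows in each library, and all 8 had enough counts to be tested. The 6 mouse libraries comprise 3 of liver neutrophils and 3 of blood neutrophils. All mice had received, for 1 week, a diet with 3,5-diethoxycarbonyl-1,4-dihydrocollidine (DDC), which damages bile ducts, so no group without the diet was compared. Cells were pulled out with magnetic beads against Ly6G, a surface protein of mouse neutrophils, from liver after a Percoll gradient and from blood after red cell lysis, so the preparation differs with the organ in every library. The sources used here do not give strain, sex or age. The study states an n of 3 but not which libraries share a mouse, so p-values describe the spread between these samples, which may be technical in part. The libraries were made from total RNA with a stranded low-input kit, which reads nuclear RNA and RNA without a poly(A) tail as well as mRNA.

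Malat1 and Neat1 lie next to each other and are among the best known nuclear RNAs. Malat1 gathers in nuclear speckles, which store splicing factors, and Neat1 is the scaffold of paraspeckles, nuclear bodies that hold RNA-binding proteins. Gas5 and the Snhg genes are snoRNA hosts: their introns are cut down to snoRNAs that guide the modification of ribosomal RNA, while many of the spliced host RNAs begin with a run of C and T bases and are broken down on ribosomes by nonsense-mediated decay. Kcnq1ot1 is a long unspliced RNA read from the paternal chromosome against the direction of Kcnq1, and it silences nearby imprinted genes on the same chromosome in some tissues.

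The starts of the 5 snoRNA hosts are shown because the run of C and T at the start is the sequence feature this class of genes is known for. Each line gives 40 bases before and 40 from the annotated start, read on the gene's strand from RefSeq (GRCm38.p6), with the longest C and T run that touches the 20 bases on either side of the start in capitals. RefSeq windows matched 7 of the 8 genes, and Neat1 had no entry. For Gas5 the second of its annotated starts is shown, chosen after both were seen. At the other start the run was 3 bases long, and 95.3% of all RefSeq windows had one at least as long.
Gas5, chr1:161035126-161035205, + strand: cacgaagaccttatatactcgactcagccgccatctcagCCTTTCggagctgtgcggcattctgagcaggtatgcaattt
Snhg1, chr19:8723447-8723526, + strand: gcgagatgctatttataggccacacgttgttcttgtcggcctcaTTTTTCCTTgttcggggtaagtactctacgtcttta
Snhg8, chr3:123508297-123508376, - strand: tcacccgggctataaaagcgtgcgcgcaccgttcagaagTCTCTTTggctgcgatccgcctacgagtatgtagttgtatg
Snhg12, chr4:132308638-132308717, + strand: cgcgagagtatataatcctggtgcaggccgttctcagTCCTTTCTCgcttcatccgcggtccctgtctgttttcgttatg
Snhg15, chr11:6528721-6528800, - strand: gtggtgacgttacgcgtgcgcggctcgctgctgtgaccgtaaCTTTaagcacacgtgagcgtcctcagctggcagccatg
The run was 9 bases long in Snhg1 and Snhg12, 7 in Snhg8, 6 in Gas5 and 4 in Snhg15. Of all 32851 RefSeq windows, 14.9% had a run of at least 9 bases in that place, 30.6% one of at least 7, 44.4% one of at least 6 and 82.8% one of at least 4. Snhg15 therefore had a run no longer than that of most genes, as did Malat1 and Kcnq1ot1, with 4 bases each. Other motifs, searched on both strands of the 300-base windows and chosen after the sequences were seen, were TATAAA in Snhg1 and Snhg8 (13.6% of all windows hold it), TGACGTCA in Gas5 and Snhg15 (1.79%) and CACGTG in Snhg15 (7.15%). A match is a description of letters and not of a bound site.

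The start of Kcnq1ot1 is shown whole because of its repeated CCAAT. The line gives 250 bases before and 50 from the start, with CCAAT in capitals, as found on either strand.
Kcnq1ot1, chr7:143296498-143296797, - strand: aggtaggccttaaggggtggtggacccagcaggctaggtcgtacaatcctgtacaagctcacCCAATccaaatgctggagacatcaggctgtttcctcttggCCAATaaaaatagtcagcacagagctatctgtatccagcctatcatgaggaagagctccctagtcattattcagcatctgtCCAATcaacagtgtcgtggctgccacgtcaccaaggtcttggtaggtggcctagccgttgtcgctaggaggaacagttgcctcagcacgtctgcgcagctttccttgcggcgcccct
It held CCAAT 3 times. Of all windows of that length, 37.4% held at least 1 CCAAT and 3.37% held at least 3.

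In liver neutrophils 2 of the 8 lncRNAs were higher than in blood neutrophils and 0 were lower. Kcnq1ot1 was 3.80-fold higher and Snhg15 3.35-fold higher, while Malat1, Neat1, Gas5, Snhg1, Snhg8 and Snhg12 did not pass the test. Genes were tested with edgeR's quasi-likelihood test, adjusted by the Benjamini-Hochberg method over all 13458 tested genes and called at an adjusted p under 0.05. Of all tested genes, 31.6% were called, 17.4% as higher in liver and 14.2% as lower. With 8 genes, 2 higher is a share of 25.0%, and 1 gene fewer would place it below that background. In 3 of the 8, Snhg1, Snhg15 and Kcnq1ot1, every liver library lay above every blood library, and in 0 every liver library lay below; over all tested genes the shares were 25.8% and 22.7%. No member was lower at an unadjusted p under 0.05 in edgeR, and DESeq2 and limma-voom also called 0 lower. The median log2 fold change of the 8 was 0.37, against 0.04 over all tested genes.

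**Figure D1:**
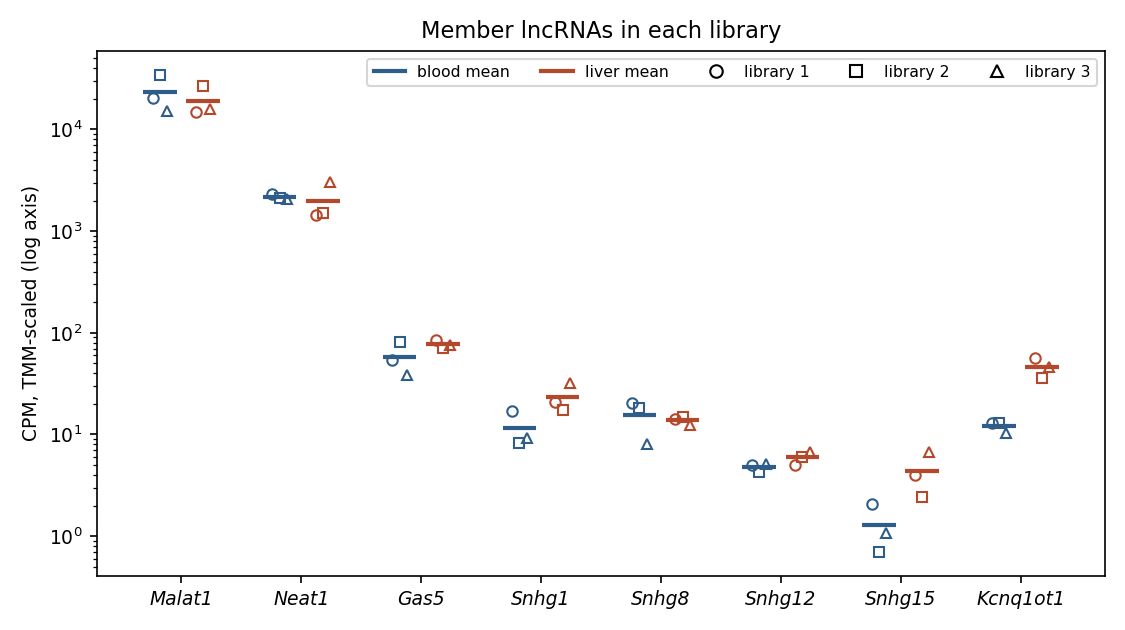
Level of each of the 8 lncRNAs in each library, in CPM (counts scaled by depth, on TMM-scaled library sizes; log axis), with blood in blue, liver in red, 1 symbol per library number and a bar at the group mean. The liver and blood symbols are apart for Snhg1, Snhg15 and Kcnq1ot1 and mixed for the other genes. Whether equal numbers mean the same mouse is not stated.

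Total counts ran from 13054673 to 17579669 per library, so 3 counts correspond to 0.181 to 0.263 CPM, a floor that covers counting error only. Markers of the sorted cell were present in all libraries, but the summed level of 12 neutrophil markers was lower in liver (7187 to 12949 CPM) than in blood (21855 to 32792 CPM), and 9 of the 12 were called lower. Markers of other cells differed as well. The sum of 8 monocyte markers was 842 to 1340 CPM in liver and 72.0 to 145 CPM in blood, with 7 called higher. The sum of 13 hepatocyte markers was 273 to 516 CPM against 108 to 152 CPM, with 8 of 9 tested called higher. Trf alone made up 49.5% to 99.5% of it, and the other 12 summed to 18.9 to 261 CPM in liver and 0.526 to 6.47 CPM in blood. Albumin (Alb) was at 7.25, 73.2 and 148 CPM in liver 1, 2 and 3 and at 2.44, 0.0876 and 0.470 CPM in blood 1, 2 and 3. The sum of 13 Kupffer cell and macrophage markers was 477 to 872 CPM against 328 to 517 CPM (185 to 484 against 41.2 to 177 CPM without Csf1r), with 5 of 12 higher. Endothelial markers summed to 128 to 158 CPM against 32.4 to 65.1 CPM, of which Stab1 was the largest part, and dendritic cell markers to 67.9 to 160 CPM against 21.6 to 57.6 CPM. Cholangiocyte markers summed to 64.3 to 101 CPM against 12.0 to 15.02 CPM, but without Spp1 to 8.42 to 58.5 CPM against 9.29 to 13.2 CPM, which overlap. Of 4 cholangiocyte markers tested, 3 were called higher in liver, Spp1, Krt8 and Krt18, and 1, Krt7, was called lower. Krt8 was at 0.979, 18.9 and 33.9 CPM in liver 1, 2 and 3 and at most at 0.359 CPM in blood. Krt18 was at 1.17, 9.27 and 18.4 CPM in liver 1, 2 and 3 and at most at 0.201 CPM in blood. Sox9 was at 0 in all blood libraries, and Krt19 was at 0 in all blood libraries and in liver 2 and 3. Stellate cell and fibroblast markers reached at most 6.44 CPM, and T and NK cell markers at most 16.8 CPM. Platelet markers went the other way, with 10.8 to 18.8 CPM in liver, 37.9 to 228 CPM in blood and 3 of 7 called lower. Markers of immature neutrophils summed to 58.7 to 122 CPM in liver and 34.3 to 86.7 CPM in blood. The proliferation gene Mki67 made up 85.1% to 98.8% of that sum. Without Mki67 the sums were 5.53 to 18.2 CPM in liver and 1.07 to 4.53 CPM in blood, which did not overlap. Of 3 tested, 0 were called higher and 0 lower. Top2a was at 12.0, 3.37 and 5.15 CPM in liver 1, 2 and 3 and at 3.31, 2.54 and 0.806 CPM in blood 1, 2 and 3. Mpo reached 3.39 CPM in liver and 0.175 CPM in blood, while the granule genes Elane and Ctsg stayed under 1 CPM. In such bulk libraries fewer cells of a type and less RNA per cell cannot be told apart, and the part of these other cells in the lncRNA values was not tested.

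Malat1 was one of the most abundant transcripts in every library. It stood at 14803, 26996 and 15984 CPM in liver 1, 2 and 3 and at 20225, 34633 and 15205 CPM in blood 1, 2 and 3. The highest library of each group was its number 2. The groups overlapped, with blood 2 above every liver library and liver 1 below every blood library. By counts it ranked 1 to 4 among all genes, and it held 1.95% ± 0.55 (SD, n = 3) of all liver counts, against 2.21% ± 0.72 (SD, n = 3) in blood. The log2 fold change of liver over blood was -0.28 ± 0.38 (SE), with a 95% interval of -1.13 to 0.58 and an adjusted p of 0.607. The interval runs from 0.456-fold to 1.49-fold, so these libraries do not exclude a change within that range.

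The share of lncRNA reads taken by Malat1 overlapped between the groups. It made up 28.7%, 49.7% and 28.4% of the counts of lncRNA genes in liver 1, 2 and 3, and 45.7%, 59.0% and 44.0% in blood 1, 2 and 3, so that liver 2 lay above blood 1 and 3. All lncRNA genes together held 5.55% ± 0.70 of counts in liver, against 4.39% ± 0.69 in blood (SD, n = 3). Gene models that overlap ribosomal RNA, Gm26917 and Gm42418, together held 2.20%, 1.15% and 2.70% of all counts in liver 1, 2 and 3. In blood 1, 2 and 3 they held 0.420%, 0.447% and 0.0923%. Their part in the lncRNA shares, that of Malat1 included, was not tested. A gene model on the opposite strand within Malat1, Gm37376 (chr19:5801941-5802393, + strand), had counts equal to 2.22% to 2.82% of those of Malat1 in every library. The sources used here do not say whether counting used strand, so reads of Malat1 and of this model cannot be told apart with certainty. The log2 fold change of Gm37376, -0.13 ± 0.35 (adjusted p = 0.809), lay close to that of Malat1.

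Neat1 was the next most abundant of the 8 in counts. It measured 1451, 1518 and 3027 CPM in liver 1, 2 and 3 and 2330, 2139 and 2060 CPM in blood 1, 2 and 3. The blood libraries were close together, and the liver libraries lay on both sides of them, with liver 3 above all blood libraries and liver 1 and 2 below. The liver mean was 1999 ± 891 CPM, the blood mean 2177 ± 139 CPM (SD, n = 3), and the log2 fold change of -0.12 ± 0.31 did not pass the test (adjusted p = 0.786; 95% interval -0.81 to 0.56). Liver 3 was also the library with the highest hepatocyte, macrophage and monocyte marker sums, and the part of those cells in its Neat1 level was not tested. Neat1 counts were 9.80%, 5.62% and 18.9% of Malat1 counts in liver 1, 2 and 3 and 11.5%, 6.18% and 13.5% in blood 1, 2 and 3, so the ratio also overlapped between the groups. Both genes lie on the minus strand of chromosome 19 (GRCm38), Malat1 at chr19:5795690-5802672 and Neat1 at chr19:5824708-5845478.

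Levels can be set against each other only per length. Per kilobase of exon, the liver means were 2758 CPM for Malat1, 96.2 for Neat1, 20.5 for Gas5, 16.2 for Snhg8, 7.82 for Snhg1, 3.21 for Snhg15, 2.47 for Snhg12 and 0.494 for Kcnq1ot1. In blood the means were 3344 CPM per kilobase for Malat1, 105 for Neat1, 18.1 for Snhg8, 15.3 for Gas5, 3.89 for Snhg1, 1.99 for Snhg12, 0.947 for Snhg15 and 0.130 for Kcnq1ot1. Gas5 and Snhg8 stood in opposite order in the groups, and in blood their spreads (SD 5.72 and 7.68, n = 3) exceeded the difference between them. The same held in liver for Snhg15 (SD 1.59) and Snhg12 (SD 0.361), whose means differed by less than the spread of Snhg15. Kcnq1ot1 was last in both groups, over 93092 bases of annotated exon.

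Gas5 (growth arrest-specific 5; chr1:161034422-161038539, + strand), which hosts C/D box snoRNAs, was the most abundant of the 5 snoRNA hosts in CPM. It measured 84.6, 71.1 and 75.8 CPM in liver 1, 2 and 3 and 53.8, 80.6 and 38.1 CPM in blood 1, 2 and 3. The liver libraries were close together, and blood 2 lay among them while blood 1 and 3 lay below. On the log2 scale the difference was 0.43 ± 0.26 (adjusted p = 0.244; 95% interval -0.16 to 1.01). Without blood 2 the value was 0.72 and the gene was called (adjusted p = 0.0487; 0.0487 to 0.696 over all alternatives), and without blood 3 it was 0.15. Blood 2 was also the blood library with the most B cell and plasma cell marker RNA: the sum of 8 such markers was 128, 264 and 53.4 CPM in blood 1, 2 and 3. These stood in the order of Gas5 within blood, while the liver sums of 74.1, 79.7 and 64.4 CPM in liver 1, 2 and 3 did not. The part of B cells in the Gas5 values was not tested.

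Snhg1 (chr19:8723475-8726443, + strand), the host of Snord22 and of other C/D box snoRNAs, measured 20.6, 17.3 and 31.7 CPM in liver 1, 2 and 3. In blood 1, 2 and 3 it measured 17.03, 8.32 and 9.26 CPM. Every liver library was above every blood library, by a narrow gap between liver 2 and blood 1. Snhg1 differed by 1.01 ± 0.35 on the log2 scale (95% interval 0.22 to 1.80), and the adjusted p of 0.0544 fell just outside the threshold. The call depended on the method: Snhg1 was called with DESeq2 (adjusted p = 0.0278), with limma-voom (0.0447) and without a filter on low counts (0.0130), also without blood 1 (log2 fold change 1.36), and its adjusted p ran from 0.0130 to 0.186 over all alternatives.

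Snhg8 (chr3:123507552-123508404, - strand), the host of Snora24, measured 14.2, 14.9 and 12.5 CPM in liver 1, 2 and 3 and 20.2, 18.2 and 7.99 CPM in blood 1, 2 and 3. The liver values lay within the range of the blood values. The log2 fold change of -0.16 ± 0.35 did not pass the test (adjusted p = 0.758; 95% interval -0.94 to 0.63). The libraries stood in the same order within each group for the sum of 8 erythroid markers, haemoglobin genes among them. That sum was 2090, 2756 and 150 CPM in liver 1, 2 and 3 and 34088, 14944 and 377 CPM in blood 1, 2 and 3. The part of red cell precursors in the Snhg8 values was not tested.

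Snhg12 (chr4:132308623-132311024, + strand), the host of Snora16a, Snora44, Snora61 and Snord99, was low and even. It measured 5.03, 6.02 and 6.75 CPM in liver 1, 2 and 3 and 4.96, 4.29 and 5.10 CPM in blood 1, 2 and 3. Liver 1 lay just below blood 3, so the groups overlapped, and the log2 fold change was 0.31 ± 0.33 (adjusted p = 0.507; 95% interval -0.43 to 1.05).

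Snhg15 (chr11:6525591-6528760, - strand), the host of Snora9, was the least abundant of the 8 in CPM and was higher in liver. It measured 3.98, 2.41 and 6.69 CPM in liver 1, 2 and 3 and 2.08, 0.701 and 1.07 CPM in blood 1, 2 and 3. These levels rest on 61, 40 and 104 counts in liver and on 29, 8 and 16 counts in blood. Liver 2 and blood 1 nearly met, and liver 3 stood above the rest. The log2 fold change was 1.75 ± 0.58, or 3.35-fold with a 95% interval of 1.36 to 8.24, and the adjusted p was 0.0448. The call was lost with limma-voom (adjusted p = 0.0626) and without liver 1 (log2 fold change 1.80), liver 3 (1.30), blood 2 (1.44) or blood 3 (1.59), over an adjusted p range of 0.0174 to 0.173 in all alternatives. Liver 3 also had the highest value of Neat1, Snhg1 and Snhg12 and the highest hepatocyte, macrophage and monocyte marker sums; the part of those cells was not tested.

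Kcnq1ot1 was higher in liver, with the lowest p-value of the 8. It measured 56.1, 36.1 and 45.7 CPM in liver 1, 2 and 3 and 13.01, 13.06 and 10.3 CPM in blood 1, 2 and 3. The lowest liver library was well above the highest blood library, and the blood libraries were nearly level. Liver exceeded blood by 1.92 ± 0.25 on the log2 scale, or 3.80-fold with a 95% interval of 2.60 to 5.55, and the adjusted p was 0.000784. By p-value it ranked 277 of the 13458 tested genes. Counts were 860, 599 and 711 in the liver libraries and 181, 149 and 153 in the blood libraries. It was called under all 18 alternatives, with a log2 fold change between 1.75 and 2.06.

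**Figure D2:**
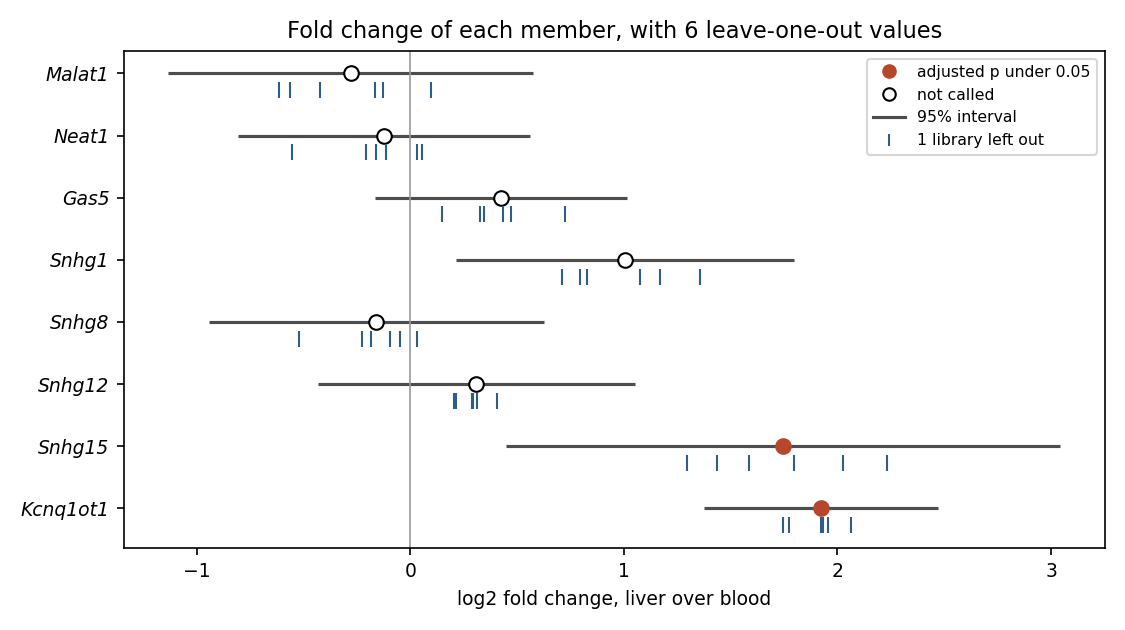
Log2 fold change of each lncRNA, liver over blood (circle, filled where the adjusted p was under 0.05), with its 95% interval as a line and, just below, 1 blue tick for each of the 6 fits with 1 library left out. All 6 ticks of Kcnq1ot1 lie between 1.75 and 2.06; the ticks of Malat1, Neat1 and Snhg8 fall on both sides of 0.

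Kcnq1ot1 occupies 93092 bases without an intron at chr7:143203458-143296549, minus strand, inside Kcnq1, which runs the other way. Kcnq1 itself, a potassium channel gene, had 0 counts in all 6 libraries, where 3 counts would correspond to 0.181 to 0.263 CPM. Among lncRNAs annotated with a single exon of at least 5 kb, Kcnq1ot1 included, 39 were tested, with a median of 0.41 on the log2 scale. Of them, 8 were higher in liver (20.5%, against 17.4% of all tested genes) and 6 were lower (15.4%, against 14.2%). Of the genes of the imprinted domain and its surroundings, 13 were listed and 9 tested. Here 1 was higher (11.1%, against 17.4% of all tested genes) and 0 were lower (against 14.2%), with 2 higher and 0 lower at an unadjusted p under 0.05. DESeq2 also called 0 lower and so did limma-voom. The gene called was Tnfrsf22, a decoy receptor for TRAIL, at 26.6, 49.9 and 12.5 CPM in liver 1, 2 and 3 and 7.91, 1.84 and 5.37 CPM in blood 1, 2 and 3 (log2 fold change 2.55 ± 0.63, adjusted p = 0.0177). Its call was lost without blood 3 (log2 fold change 2.56, adjusted p = 0.0538; 5.3e-11 to 0.0820 over all alternatives). Its neighbour Tnfrsf23, the most abundant gene of the list, differed by 1.09 ± 0.38 on the log2 scale (adjusted p = 0.0578), and was called without blood 1 or liver 3 (1.31 to 1.41; adjusted p 5.7e-05 to 0.173 over all alternatives). Cdkn1c, the cell cycle inhibitor that Kcnq1ot1 silences in some tissues, stood at 1.88 ± 1.54 CPM in liver, against 0.944 ± 0.412 CPM in blood (SD, n = 3; adjusted p = 0.326), and Phlda2 had no count.

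The snoRNA rows inside the 5 hosts had few reads. The annotation places 25 snoRNA rows there, of which 18 had any count, and together they held 688 counts in the liver libraries and 293 in the blood libraries. Most were from Snord22 in Snhg1, a C/D box snoRNA, with 110, 154 and 172 counts in liver 1, 2 and 3 and 45.7, 67.8 and 90.8 expected counts in blood 1, 2 and 3. Every liver library was above every blood library, but the log2 fold change of 0.84 ± 0.36 did not pass the test (adjusted p = 0.102). The snoRNA rows of Snhg1 equalled 35.0% to 53.3% of the host's own counts in liver and 19.7% to 71.3% in blood. In Gas5, the snoRNA model Gm22357 (chr1:161036057-161036139) had 22.0, 25.0 and 39.96 counts in liver and 5.99, 6.96 and 5.97 in blood, and was called higher (log2 fold change 1.92 ± 0.63, adjusted p = 0.0416). No other snoRNA row of the hosts was tested. Snora24 in Snhg8 had 30.1 counts in liver, of which 24.2 came from liver 3, and 15.5 in blood. The sole snoRNA row of Snhg15, Snora9, had 18.5 counts in liver and 6.90 in blood. Reads of unspliced host RNA and of mature snoRNA cannot be told apart in such rows. Adding the rows inside a gene to that gene's own counts, an alternative chosen after seeing the data, gave Snhg1 a log2 fold change of 0.96 and a call (adjusted p = 0.0238). Over all snoRNA genes, 34 were tested, with a median log2 fold change of 0.81. Of these, 3 were higher (8.82%, against 17.4% of all tested genes) and 0 were lower (against 14.2%). At an unadjusted p under 0.05 the counts were 10 and 0.

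Genes next to the lncRNAs differed in both directions. Slc3a2, the heavy chain of the CD98 amino acid transporter, starts 106 bases from Snhg1 on the opposite strand. It measured 553, 466 and 310 CPM in liver 1, 2 and 3 and 84.2, 106 and 50.1 CPM in blood 1, 2 and 3. The groups were far apart, and the gene was 5.53-fold higher in liver (log2 fold change 2.47 ± 0.32, adjusted p = 0.000895). Its liver libraries stood in a different order from those of Snhg1, with liver 3 the lowest for Slc3a2 and the highest for Snhg1. On the other side, Wdr74, a ribosome assembly factor, was 4.28-fold higher (adjusted p = 0.0156). Its liver mean was 4.01 ± 0.507 CPM and its blood mean 0.924 ± 0.517 CPM (SD, n = 3). It lost its call without blood 2 (log2 fold change 1.81) or blood 3 (1.91).

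Zbtb37, a zinc finger gene that overlaps the start of Gas5 on the opposite strand, was lower in liver. It measured 28.5, 32.0 and 24.5 CPM in liver 1, 2 and 3 and 67.1, 56.9 and 71.9 CPM in blood 1, 2 and 3, a 2.30-fold difference (adjusted p = 0.00243). Upstream of Gas5, Serpinc1, the hepatocyte gene of antithrombin, was 2.33-fold higher (adjusted p = 0.0335). Its call was lost when any single library other than liver 3 was left out, with log2 fold changes of 1.00 to 1.27. Serpinc1 measured 6.01, 8.13 and 5.02 CPM in liver 1, 2 and 3 and 2.66, 2.45 and 3.09 CPM in blood 1, 2 and 3. The 12 hepatocyte markers other than Trf were at 18.9, 150 and 261 CPM in liver 1, 2 and 3 and at 0.526 to 6.47 CPM in blood. The part of hepatocytes in Serpinc1 was not tested. Serpinc1 and Zbtb37 overlap on opposite strands at chr1:161002922-161005863 and both have fractional expected counts. Reads of these genes therefore cannot be told apart with certainty. Near Malat1 and Neat1, Frmd8, which binds the iRhom proteins, was 2.02-fold lower (log2 fold change -1.02 ± 0.20, adjusted p = 0.00494). Near Snhg15, Ccm2, a scaffold protein gene, was 2.65-fold lower (adjusted p = 0.000755) while Myo1g, a myosin of blood cells, was not called (0.30 ± 0.24). Trnau1ap beside Snhg12 was not called (0.33 ± 0.45), and the genes beside Snhg8, Prss12 and Ndst3, had at most 8 counts in a group.

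**Figure D3:**
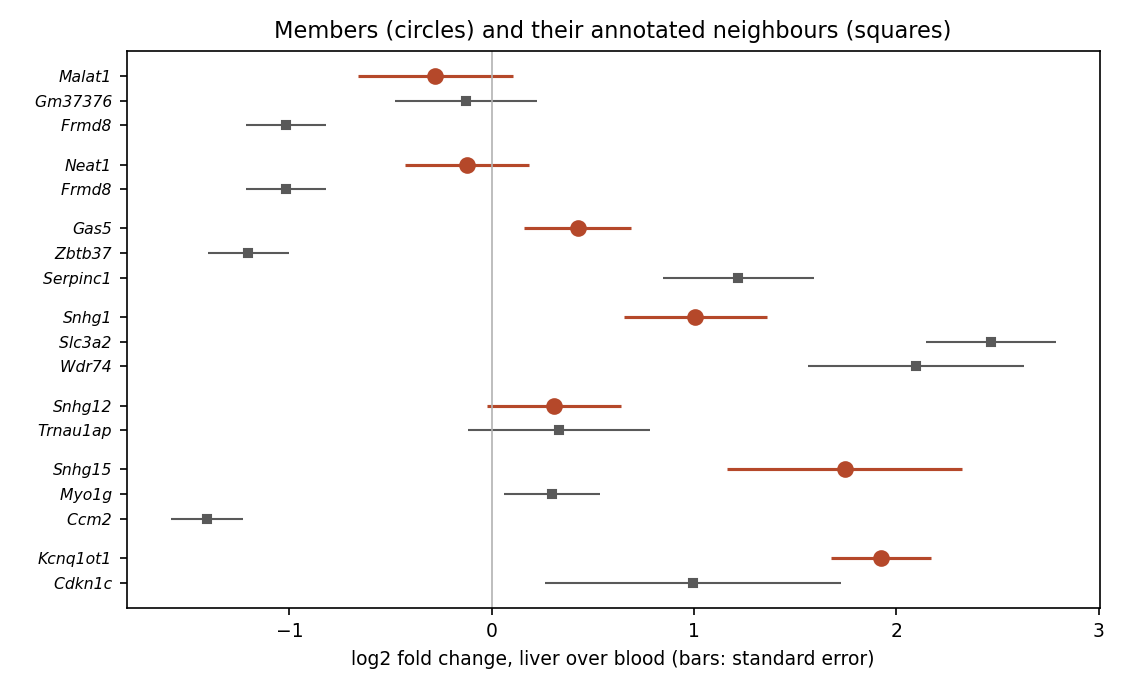
Log2 fold change, liver over blood, of 7 of the lncRNAs (circles) and of the genes named here that lie beside or overlap them (squares), with bars of 1 standard error. Slc3a2 and Wdr74 lie to the right of Snhg1, Zbtb37 lies far to the left of Gas5, and Ccm2 lies on the opposite side of 0 from Snhg15.

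Other genes of the same pathways were taken from 7 lists, and the list with the largest share of called genes was that of proteins that bind and assemble snoRNAs. Of 15 such genes tested, 10 were higher in liver (66.7%, against 17.4% of all tested genes) and 0 were lower (against 14.2%). With 1 library left out, 7 to 8 were called higher and 0 lower. At an unadjusted p under 0.05 the counts with all 6 libraries were 11 and 0, and DESeq2 and limma-voom called 0 lower. The median log2 fold change of the 15 was 1.76, against 0.04 for all tested genes. Nop58, a core protein of C/D box particles, measured 28.0, 33.0 and 18.3 CPM in liver 1, 2 and 3 and 6.40, 4.38 and 1.95 CPM in blood 1, 2 and 3 (log2 fold change 2.64 ± 0.44, adjusted p = 0.00243). Its partner Nop56 was 3.28-fold higher (adjusted p = 0.00140). The assembly factors Nufip1 (log2 fold change 2.30), Naf1 (2.53) and Znhit3 (2.77) were higher too. Naf1 lost its call when any single library other than blood 2 was left out (log2 fold change 1.93 to 2.71), and Znhit3 when any other than liver 2 was (2.29 to 3.30). Ruvbl1, also called higher, lost its call without any single library other than blood 3 (1.08 to 1.63). Nop10, called higher as well, lost it without liver 2 or blood 3 (1.41 to 1.45).

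Of a list of other small RNA hosts, nearly all of them snoRNA hosts, 18 were given and 9 tested. Of these, 1 was higher (11.1%, against 17.4% of all tested genes) and 0 were lower (against 14.2%). At an unadjusted p under 0.05 the counts were 4 and 0, with 0 lower also in DESeq2 and limma-voom. Snhg17 was 3.63-fold higher at 5.61, 4.46 and 10.9 CPM in liver 1, 2 and 3 and 1.87, 2.28 and 1.61 CPM in blood 1, 2 and 3 (adjusted p = 0.0132), and lost its call without liver 3 (log2 fold change 1.39, adjusted p = 0.0605). Zfas1, the most abundant of them, was not called (-0.25 ± 0.27). In 4 of the 9 every liver library was above every blood library, and over all tested genes the share was 25.8%. The 4 were Snhg4, Snhg5, Snhg17 and Mir17hg, the last of which hosts microRNAs rather than snoRNAs. The median log2 fold change of the 9 was 0.96.

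Of 33 listed names of other well known noncoding RNAs, 27 were in the data and 17 were tested, with a median log2 fold change of 0.28. Of the 17, 6 were higher (35.3%, against 17.4% of all tested genes) and 2 were lower (11.8%, against 14.2%). Firre, an X-linked nuclear RNA, had 342 counts in liver and 13 in blood (log2 fold change 4.42 ± 0.54, adjusted p = 0.000677). Trp53cor1, a p53 target, had 112 counts against 2 (adjusted p = 0.00597), and Mir155hg, the host of miR-155, had 61 against 3 (adjusted p = 0.0234). The call of Mir155hg was lost when any single library other than blood 2 was left out (log2 fold change 3.24 to 3.96). Lncpint measured 15.3, 9.64 and 21.5 CPM in liver 1, 2 and 3 and 2.44, 2.98 and 1.48 CPM in blood 1, 2 and 3, a 6.75-fold difference (adjusted p = 0.00172). The others called were Rmrp and Mir22hg, higher, and Dleu2 and Peg13, lower. The call of Mir22hg was lost without liver 1, liver 3, blood 1 or blood 3 (log2 fold change 0.73 to 0.97). Rn7sk, the abundant RNA that holds the elongation factor P-TEFb inactive, was not called (log2 fold change -0.55 ± 0.23, adjusted p = 0.0889) although every liver library was below every blood library; DESeq2 called it lower (adjusted p = 0.0303; 0.0303 to 0.218 over all alternatives). Over all 1771 tested lncRNA genes, 227 were higher (12.8%, against 17.4% of all tested genes) and 201 lower (11.35%, against 14.2%). Their median was -0.01.

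Proteins of the bodies that Neat1 and Malat1 occupy differed in both directions. Of 23 paraspeckle proteins 3 were higher and 2 lower, and their median was 0.02 on the log2 scale. The core proteins Sfpq (0.13 ± 0.24), Nono (-0.54 ± 0.20, adjusted p = 0.0692) and Pspc1 (0.02 ± 0.18) were not called, nor was Hnrnpk, the most abundant (-0.04 ± 0.21). Without blood 3 Nono was called lower (-0.71). Hnrnpa1 was 2.17-fold higher (adjusted p = 0.00281), Smarca4 was higher by 0.76 on the log2 scale, while Rbm12 (-0.77) and Hnrnph3 (-0.76) were lower. The calls of Smarca4, Rbm12 and Hnrnph3 were lost without most single libraries: Smarca4 without liver 1, liver 3, blood 1 or blood 2 (0.59 to 0.79), Rbm12 without any other than liver 3 (-0.84 to -0.64), and Hnrnph3 without any other than blood 3 (-0.88 to -0.66). Of 24 nuclear speckle proteins 4 were higher (16.7%, against 17.4%) and 3 lower (12.5%, against 14.2%), with a median of 0.15. Srsf7, a splicing factor, was higher (log2 fold change 1.25 ± 0.22, adjusted p = 0.00298), as were U2af1 (1.02), Srsf6 (0.86) and Srsf2 (0.80). Srpk2, a kinase of such factors, was 2.15-fold lower (adjusted p = 0.00564), and Pnn and Srsf1 were lower. U2af1 lost its call without liver 1, blood 1 or blood 2 (0.86 to 0.93), and Srsf2 without liver 1, liver 3, blood 1 or blood 2 (0.63 to 0.73). Pnn lost its call without liver 1, liver 2, blood 1 or blood 3 (-0.71 to -0.60), and Srsf1 without liver 1, liver 2, blood 2 or blood 3 (-0.64 to -0.52). Srrm2, a speckle scaffold and the most abundant of the list, was not called (0.25 ± 0.20).

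Nonsense-mediated decay is the pathway that breaks down spliced Gas5 and other host RNAs. Of 18 of its factors, 2 were higher (11.1%, against 17.4% of all tested genes) and 5 lower (27.8%, against 14.2%), with a median of -0.01. Casc3, a part of the exon junction complex, measured 64.2, 60.1 and 51.2 CPM in liver 1, 2 and 3 and 136, 159 and 138 CPM in blood 1, 2 and 3, a 2.47-fold difference (adjusted p = 0.00109). Pnrc2 was lower by 0.94 on the log2 scale, and Upf1, Upf2 and Smg8 were lower as well. Upf1 lost its call when any single library other than blood 1 was left out (-0.68 to -0.55), and Smg8 when any of the 6 was (-0.82 to -0.66). Nbas was higher (log2 fold change 2.30 ± 0.41, adjusted p = 0.00339), and Magohb was higher on 93 counts against 14 but lost its call when any single library other than liver 2 was left out (log2 fold change 1.85 to 3.10). Smg1, the kinase of the pathway and the most abundant of the list, was not called (-0.28 ± 0.19).

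**Figure D4:**
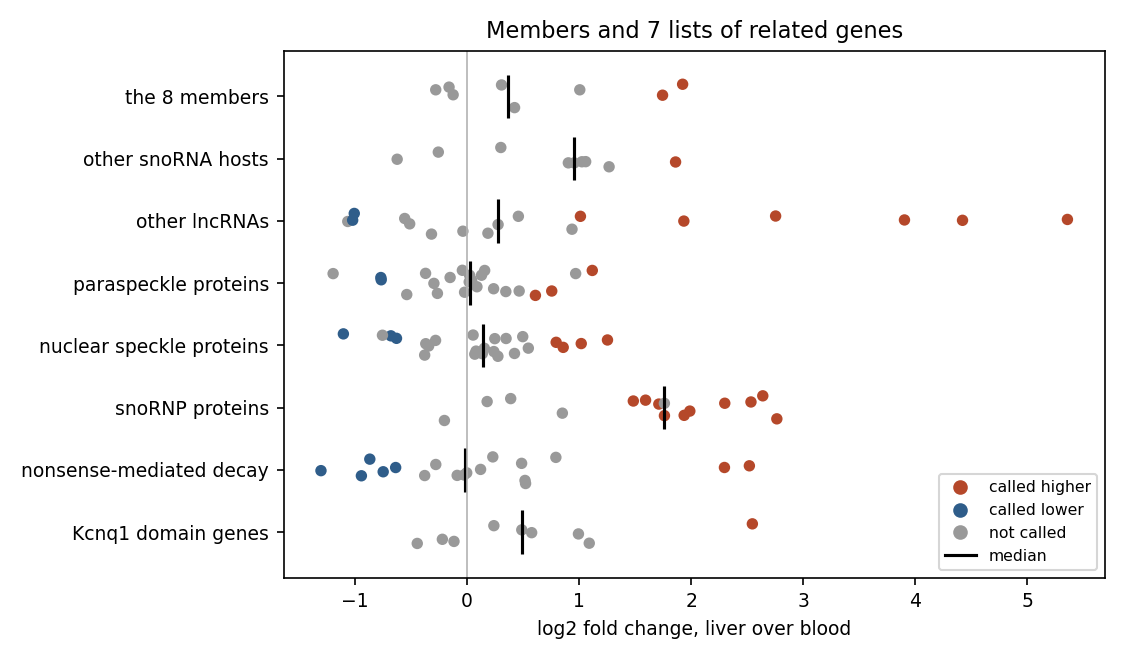
Log2 fold change, liver over blood, of the 8 lncRNAs and of the tested genes in 7 lists of related genes, 1 dot per gene (red, called higher; blue, called lower; grey, not called), with a black bar at each median. The snoRNP proteins lie mostly to the right of 0, with a median of 1.76, and the paraspeckle, nuclear speckle and decay lists are centred near 0.

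The level of each lncRNA was compared with that of 6307 other genes over the 6 libraries by Pearson's r of log2(CPM + 0.5), as a description, since the points fall into 2 groups of 3 and share each library's depth. Snhg1 and Snhg15 had nearly the same profile (r = 0.984), and Smc6 and Ccdc88a were among the 3 genes most like each of them (r of 0.989 to 0.994). Kcnq1ot1 was most like Rpn2, Nr4a2 and Nlrp3 (r of 0.994 to 0.998), all 3 called higher in liver. Malat1 was most like Alas1, Eif2ak2 and Asah1 (r of 0.984 to 0.991), and Neat1 was most like Sugp2, Necap1 and C2cd3 (r of 0.915 to 0.970), none of them called. Malat1 and Neat1, though neighbours, had an r of -0.10. Gas5 was most like Man1a, Cd74 and H2-Aa (r of 0.973 to 0.979), of which Cd74 and H2-Aa are antigen presentation genes of B cells and other cells. Snhg8 was most like Car2, Tfdp2 and Tra2a (r of 0.960 to 0.970), of which Car2 is abundant in red cell precursors. Among the genes most like Snhg12 were Smg5 and Sf3b3 (r of 0.980 to 0.996).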

How the data were processed

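RNA was measured by stranded total-RNA sequencing in 3 liver and 3 blood neutrophil libraries. The deposited values are RSEM expected counts for each gene, which the authors obtained from STAR alignments to GRCm38. These tools come from the submitters' processing notes, as do FastQC 0.11.5 and limma. The sources used here do not give the filters or the strand setting of counting. Of the values, 7.43% were not whole, and expected counts were rounded before testing, which can move low rows such as the snoRNAs.

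Rows were matched by identifier to GENCODE M21 (98.9% of 53090), which gave biotypes, 1-based coordinates and exon lengths. In all, 213 symbols had more than 1 row, none of them a member. A filterByExpr filter (count of 10, total of 15) left 13458 genes. TMM factors and the robust quasi-likelihood F test of edgeR 4.0.16 (in R 4.3.3), without covariates, gave two-sided p-values that were Benjamini-Hochberg adjusted over all of them. The fit was tested on simulated data drawn with its own means, dispersions and library sizes, which cannot show whether the model holds here. CPM uses TMM-scaled library sizes, and 3 counts (0.181 to 0.263 CPM) served as the floor. With 3 against 3 libraries an exact permutation test cannot go below p = 0.1, so none was used.

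Alternatives were other scalings, no filter or at least 1 CPM in 3 libraries, DESeq2 1.42.0, limma-voom (limma 3.58.1), a replicate block, repeated symbols summed, and libraries left out. Since the sources do not say whether same-numbered libraries share a mouse, the numbers were not taken as pairs. Same-numbered libraries deviated together with r of 0.05, 0.16 and 0.02, and those of unlike number with r of -0.18 to 0.12. These values cannot decide whether the libraries are paired. Replicates within a group differed beyond sampling noise (chi-square per degree of freedom 58.7 to 89.5), so none is a library counted again.

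Named genes were all members, the genes beside or inside them, up to 4 called genes per list with the largest change and groups apart, the most abundant gene of each list, and the 3 genes most like each member. Further called or core genes of the lists were named after their values were seen. The members and lists were chosen with earlier results of these data known. Some genes that this rule names are not reported here.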

Additional observations from a re-analysis of the deposited data

How the results depend on the processing

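The count of lncRNAs called higher (2) was 1 when liver 3 and blood 1 were both left out, and 1 to 3 with 1 library left out, 3 being the count without blood 1, where Snhg1 was called. Leaving out both libraries also gave 1195 genes lower in liver (1916 with all 6), 0 other snoRNA hosts higher, 1 other noncoding RNA lower, 1 paraspeckle protein higher and 0 lower, 2 speckle proteins higher, 1 decay factor higher and 2 lower, and 2 genes of the Kcnq1 domain higher. With 1 library left out, counts ran from 0 to 2 for other snoRNA hosts higher, from 1 to 2 for paraspeckle proteins higher (3 with all 6 libraries) and from 0 to 2 for those lower, from 2 to 4 for speckle proteins higher and from 1 to 4 for those lower, from 1 to 3 for decay factors higher and from 3 to 4 for those lower (5 with all 6 libraries), and from 0 to 2 for Kcnq1 domain genes higher. Scaling by library size alone, which moved the median of all genes from 0.04 to 0.11, gave 0 paraspeckle, 1 speckle and 3 decay genes lower and 2 Kcnq1 domain genes higher. DESeq2 and no filter also gave 2 Kcnq1 domain genes higher, and limma-voom and the 1 CPM filter gave 1 decay factor higher. No filter moved the median of all genes to 0.42.

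Whether same-numbered libraries share a mouse is not stated. A replicate block on those numbers gave 2322 genes higher and 2312 lower, against 2336 and 1916, and called Snhg1 (log2 fold change 1.03, adjusted p = 0.0423). Under the block 2 other snoRNA hosts were higher, 4 other noncoding RNAs lower and 4 paraspeckle proteins lower.

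Uncalled log2 fold changes that changed sign were those of Malat1 (-0.61 to 0.097 with 1 library left out, positive without blood 2), Neat1 (-0.56 to 0.053, positive without liver 1 or, at 0.030, liver 2), Snhg8 (-0.52 to 0.030, positive without blood 1; 0.12 without liver 3 and blood 1), Gm37376 (-0.50 to 0.27, positive without blood 2, liver 1 or liver 3), Hnrnpk (-0.19 to 0.070, positive without blood 1 or liver 3; 0.032 by library size and 0.16 without liver 3 and blood 1), Sfpq (-0.10 to 0.25, negative without liver 1 or, at -0.049, blood 3), Pspc1 (-0.060 to 0.077, negative without liver 2, blood 1 or blood 2 and, at -0.0012, with no filter) and Trnau1ap (-0.064 to 0.65, negative without liver 1). The cause of these shifts was not tested, beyond the fewer samples of the fits with libraries left out. Kcnq1ot1 was called in all 18 alternatives.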
